A study of Mus musculus with 2 samples.

Results

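Splicing factor genes were taken as the protein-coding genes of the mouse mm10 RefSeq annotation whose symbols start with Snrp, Sf3a, Sf3b, Prpf, Srsf or Hnrnp, which gave 66 of 21883 protein-coding genes. Their chromatin was read from a ChIC-seq experiment (chromatin immunocleavage sequencing), in which an antibody, here against the transcription factor TCF-1, guides micrococcal nuclease to chromatin, and the fragments it releases are sequenced. The cells were lymphoid tissue inducer (LTi) cells of C57BL/6 mice, innate lymphoid cells that help to build lymph nodes and Peyer's patches, sorted as lineage-negative, CD127-positive and CCR6-positive cells without KLRG1, NK1.1 or NKp46. One library came from Tcf7fl/fl-VavCre cells of the small intestine lamina propria, a genotype in which the Vav-driven Cre recombinase deletes the TCF-1 gene Tcf7 in haematopoietic cells, and the other from Tcf7+/+ cells of Peyer's patches. Each library was made from 500 fixed cells, and genotype and tissue differed together.

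The deposited table lists 19531 islands, which are stretches of clustered reads, with the raw reads of a peak and of a control library in each. Its header does not tie either library to a genotype, so no direction between genotypes is drawn here. The islands held 483771 peak-library and 189291 control-library reads, and total library depth is unknown. With 1 library per group there was no replicate check and no test between conditions. A fold is the number of peak-library reads over the number of control-library reads scaled by 2.00, the factor behind the deposited folds. Its exact 95% interval covers counting error only and treats every read as independent. Reads copied by PCR are not independent molecules, so the interval can be too narrow. Islands were called from clustered reads of the peak library, which favours folds above 1. Those without an excess over the control library were kept: among islands of splicing factor genes, 17 of 98 had a fold below 1. In a pool of cells, cutting in more cells and more cutting per cell cannot be told apart, and reads on a gene are not its expression, so markers could not be used to check the sort.

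Splicing removes introns from pre-mRNA. Small nuclear ribonucleoproteins (snRNPs), each a small RNA with a ring of Sm proteins and particle-specific partners, recognise the ends of the intron and the branch site, and the SF3A and SF3B complexes anchor the branch-site particle. PRPF proteins join and activate the assembled spliceosome. SR proteins, encoded by Srsf genes, bind exons and mostly favour their inclusion, while the heterogeneous nuclear ribonucleoproteins (hnRNPs) coat the transcript and often oppose it. These genes are active in nearly every cell type, and in lymphocytes hnRNP and SR proteins are known for shaping the exons of surface receptors such as CD45.

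Splicing factor genes carried islands almost throughout. An island overlapped the gene or the 1 kb on either side in 60 of the 66 genes (90.9%), against 47.5% of all protein-coding genes. Their median length was 13112 bp, against 17170 bp over all protein-coding genes. The 60 genes held 98 islands, of which none was shared between 2 members. One island was found at 35 genes, 2 islands at 15, 3 islands at 8 and 4 or more at Hnrnpu and Hnrnpm. An island that met the authors' FDR of 0.05 lay at 36 members (54.5%), against 31.6% of all protein-coding genes, and one that met 1e-05 at 10 members (15.2%), against 11.5%. The share of members thus lay far above the background for any island and close to it for the islands with the strongest excess. Counted by island, 51 of the 98 (52.0%) met the FDR of 0.05, against 62.5% of all islands, so single islands of members met it less often.

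Other genes of the splicing machinery gave similar counts. In a list of 92 further spliceosome and splicing regulator genes, 89 had an island, and for 55 of them it met the FDR of 0.05. Those without an island were Magoh, Zrsr2 and Mbnl3. By contrast, none of 15 splicing regulators known for neural or epithelial cells, such as Nova1, Rbfox3, Srrm4 and Esrp1, had an island, although their median length was 65907 bp. Among other constitutive genes, 76 of 90 ribosomal protein genes and 44 of 51 proteasome genes had an island. All of these lists are set beside the members as a description.

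**Figure D1:**
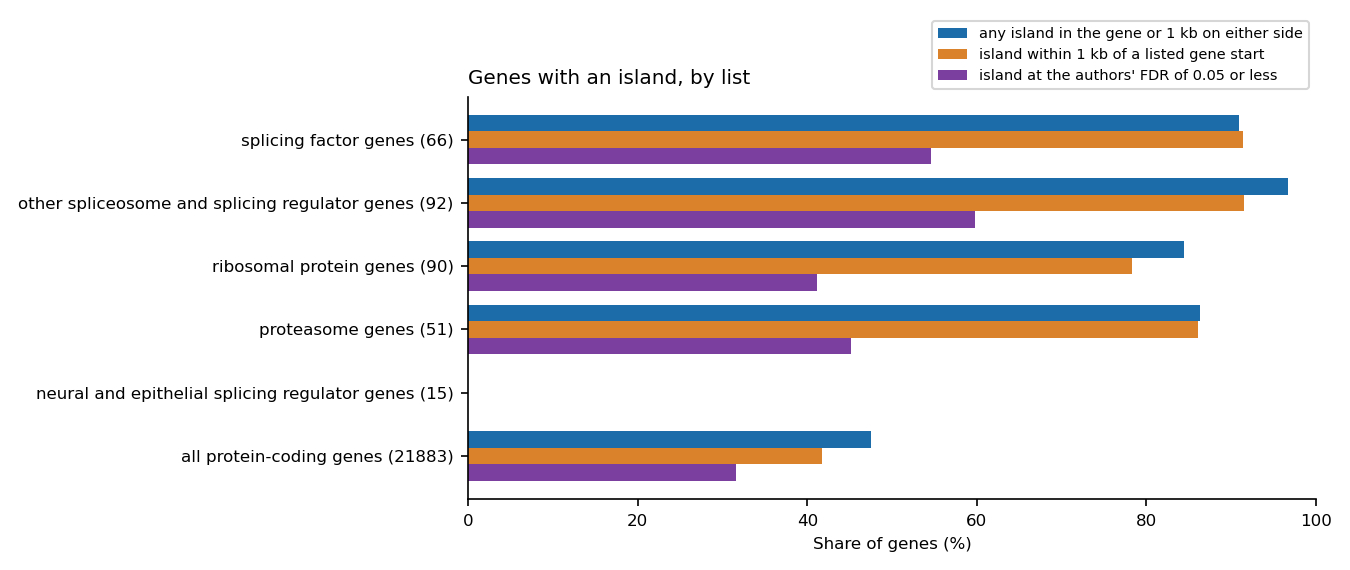
Share of genes (%) with any island (blue), with an island within 1 kb of a listed gene start (orange) and with an island that met the authors' FDR of 0.05 (purple), for 6 lists with their number of genes in brackets. Splicing factor genes stand at 90.9%, 91.4% and 54.5%, all protein-coding genes at 47.5%, 41.8% and 31.6%, and the neural and epithelial regulators at 0.

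Members with an island had one at the gene start wherever a start is listed. A gene start is listed in the RefSeq promoter table for 58 of the 66 genes, and 53 of the 58 (91.4%) had an island within 1 kb of it, against 41.8% of all protein-coding genes with a listed start. No member with a listed start had islands elsewhere alone. In 49 genes an island held the start itself. Of the 98 islands, 8 touched only the flank and not the gene body, and 39 also overlapped the locus of another protein-coding gene. At 20 members every island was shared in this way, such as the island of Hnrnpa1 with Cbx5 and that of Snrpg with Fam136a, so its reads cannot be given to one gene of the pair.

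**Figure D2:**
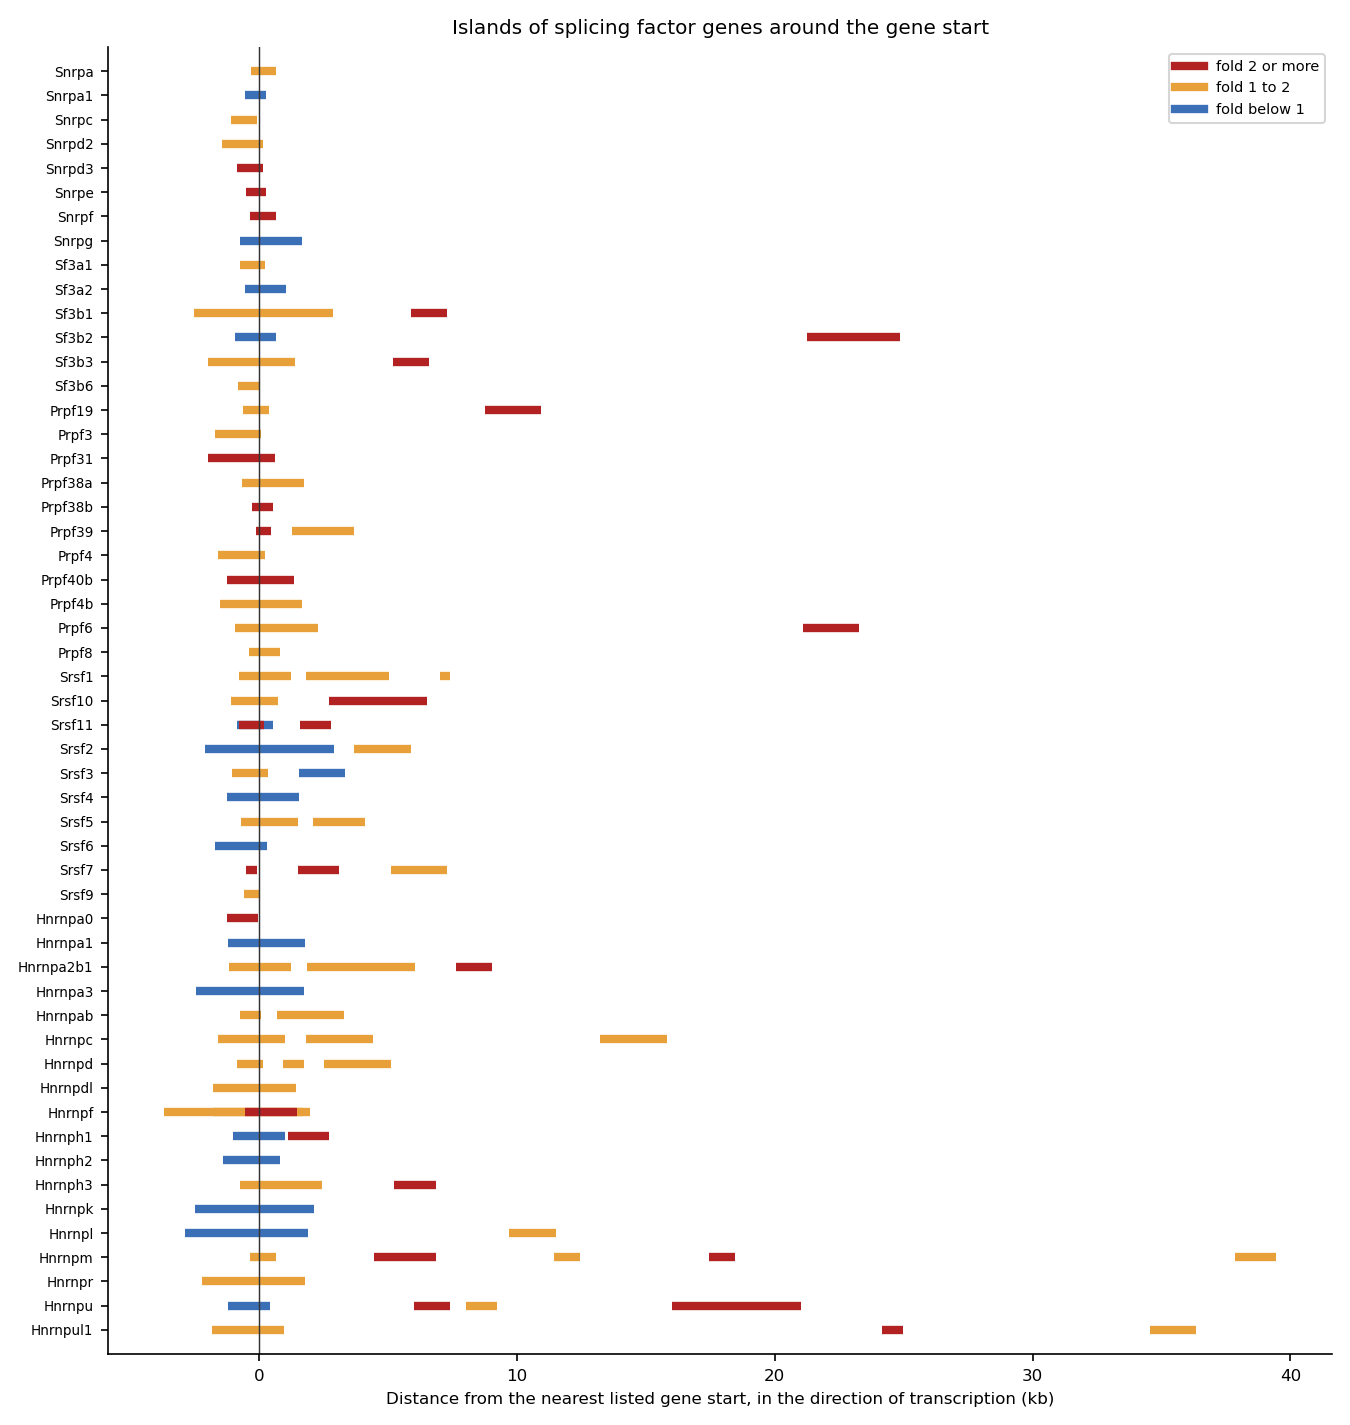
Islands (bars) of the splicing factor genes with a listed gene start, by distance from the nearest listed start in kb along the direction of transcription, coloured by fold. Genes with several listed starts, such as Hnrnpf and Srsf11, have islands drawn over each other at 0, the narrower on top. The Srsf1 island without a control read is coloured by its bound against 3 control reads. Each gene has a bar over or beside the start, and the bars further into the gene are more often red (fold of 2 or more) than those at the start.

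The excess of the peak library was small. Over the 98 islands the peak library had 2661 reads and the control library 1002, which gave 1.33 (95% interval 1.24 to 1.43), against 1.58 (1.56 to 1.59) over the islands of all protein-coding genes. The median member stood at 1.44 (quartiles 1.16 and 1.69) and the median over all protein-coding genes with an island at 1.62 (1.22 and 2.27). A pooled fold of 2 or more was found for 9 of the 60 members (15.0%), against 34.2% of all protein-coding genes with an island, and a fold below 1 for 13 members (21.7%), against 10.7%. The further splicing, ribosomal protein and proteasome genes pooled to 1.45, 1.29 and 1.30. Of those with an island, 22.5%, 26.3% and 22.7% had a fold of 2 or more, and 13.5%, 18.4% and 20.5% one below 1. When both libraries' totals over the table were set equal, every fold fell by 0.36 on the log2 scale and 23 members (38.3%) lay below 1, against 29.2% of all genes. The interval lay above 1 for 12 of the 60 members, against 21.6% of all protein-coding genes with an island, so the members were near the background. It lay below 1 for no member, against 0.0962% of all these genes, with no adjustment for the number of intervals. These counts depend on the scaling: with equal totals the interval lay above 1 for 1 member, Snrpf, against 8.49% of all these genes, and below 1 for 3, Hnrnpa3, Hnrnpl and Srsf2, against 0.847%. Without scaling no member had a fold below 1. Directions of single members given hereafter are those with the scaling of the deposited folds.

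Members' islands were slightly denser than islands in general in the peak library and more clearly so in the control library. The median island of a member was 1800 bp wide with 21 peak-library and 7.5 control-library reads, and over all islands the median was 1400 bp with 16 and 4 reads. Per kb of island, members had a median of 12.5 peak-library and 4.00 control-library reads, against 11.8 and 3.18 over all islands. The density of the control library thus lay further above the general level than that of the peak library. The highest count of any member island was 71 reads in the peak library and 50 in the control library, and no member island reached 200 peak-library reads.

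**Figure D3:**
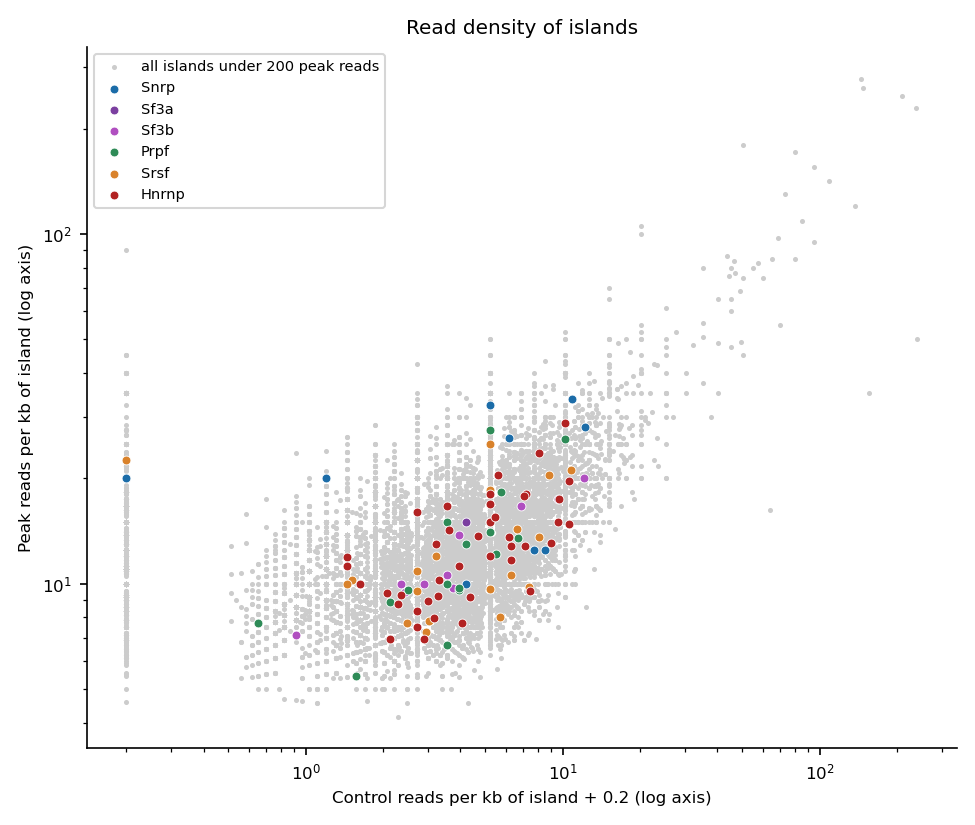
Peak-library reads per kb of island against control-library reads per kb plus 0.2, both on log axes, for member islands (coloured by family) and all islands with fewer than 200 peak-library reads (grey). Members lie inside the grey cloud, with medians of 12.5 and 4.00 reads per kb against 11.8 and 3.18 over all islands, and the column at the far left holds islands without a control read.

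The promoters of the 6 members with the highest folds among those whose window overlaps an island are shown, since TCF-1 is the antibody's target and its core letters can be looked for there. Each runs 5′ to 3′ along the gene's strand from 250 bases before to 50 after the start, from RefSeq (GRCm38.p6, the mm10 build). For Prpf19 the start island itself had a fold of 1.40, and the higher fold of the gene comes from the island over its end. Capitals mark CTTTG or its reverse complement CAAAG, the core that TCF and LEF proteins are known to bind.
Snrpf, chr10:93589609-93589908, minus strand: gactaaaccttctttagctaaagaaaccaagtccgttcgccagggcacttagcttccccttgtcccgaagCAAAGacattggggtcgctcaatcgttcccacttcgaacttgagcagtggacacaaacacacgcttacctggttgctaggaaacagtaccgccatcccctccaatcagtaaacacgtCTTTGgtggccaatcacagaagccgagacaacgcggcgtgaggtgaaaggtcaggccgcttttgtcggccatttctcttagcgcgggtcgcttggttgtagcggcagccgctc
Snrpe, chr1:133610231-133610530, minus strand: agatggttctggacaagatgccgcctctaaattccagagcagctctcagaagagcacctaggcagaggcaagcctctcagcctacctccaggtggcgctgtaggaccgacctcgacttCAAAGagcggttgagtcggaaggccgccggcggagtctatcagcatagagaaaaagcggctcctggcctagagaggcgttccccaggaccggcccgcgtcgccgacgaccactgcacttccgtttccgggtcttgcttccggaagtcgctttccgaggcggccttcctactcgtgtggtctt
Prpf38b, chr3:108911680-108911979, minus strand: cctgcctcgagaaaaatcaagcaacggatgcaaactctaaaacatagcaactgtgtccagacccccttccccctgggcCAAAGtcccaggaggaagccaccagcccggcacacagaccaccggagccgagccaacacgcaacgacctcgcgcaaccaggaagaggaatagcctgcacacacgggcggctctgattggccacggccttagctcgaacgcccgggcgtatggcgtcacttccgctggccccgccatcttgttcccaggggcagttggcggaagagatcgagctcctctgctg
Prpf19, chr19:10894981-10895280, plus strand: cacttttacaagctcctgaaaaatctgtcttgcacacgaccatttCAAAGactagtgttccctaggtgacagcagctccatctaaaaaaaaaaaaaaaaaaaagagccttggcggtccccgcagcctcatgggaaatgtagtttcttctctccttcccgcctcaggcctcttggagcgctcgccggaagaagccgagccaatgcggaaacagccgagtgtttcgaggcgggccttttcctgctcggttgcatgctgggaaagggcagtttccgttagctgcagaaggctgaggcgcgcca
Hnrnpa0, chr13:58128507-58128806, minus strand: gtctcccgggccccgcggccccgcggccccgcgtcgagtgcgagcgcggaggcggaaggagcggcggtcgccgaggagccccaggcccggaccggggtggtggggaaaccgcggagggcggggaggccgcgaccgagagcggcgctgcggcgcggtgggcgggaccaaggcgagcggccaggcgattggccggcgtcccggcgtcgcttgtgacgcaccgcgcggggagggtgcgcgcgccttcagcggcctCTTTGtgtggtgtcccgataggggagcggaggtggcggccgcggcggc
Srsf7, chr17:80207256-80207555, minus strand: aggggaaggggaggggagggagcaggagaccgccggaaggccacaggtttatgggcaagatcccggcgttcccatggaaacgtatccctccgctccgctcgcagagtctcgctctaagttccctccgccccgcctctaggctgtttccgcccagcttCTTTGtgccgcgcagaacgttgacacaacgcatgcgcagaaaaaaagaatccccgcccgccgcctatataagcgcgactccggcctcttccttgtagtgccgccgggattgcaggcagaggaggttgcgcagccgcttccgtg

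The Sm ring proteins held both the members with the highest folds and one of the lowest. Snrpf, which encodes SmF, had 1 island at its start on chromosome 10 at 93589001 to 93590000 with 20 peak-library reads and 1 control-library read, a fold of 10.0 (1.60 to 415). Snrpe, which encodes SmE, had 26 against 4 reads at its start, a fold of 3.26 (1.13 to 12.8). These 2 intervals lay above 1, and that of Snrpf is wide because it rests on a single control read. Snrpd3, for SmD3, had 26 against 6 reads and a fold of 2.17 (0.874 to 6.45). Snrpd2, for SmD2, had 54 against 17 reads and 1.59 (0.908 to 2.93) in an island shared with Qpctl. Snrpd1, for SmD1, was the only member whose islands held no control read. With 8 against 0 reads it was at least 1.34-fold higher against a floor of 3 control reads, and with the counting error of both libraries included the bound was 0.855. Snrpg, for SmG, went the other way with 30 against 20 reads, a fold of 0.751 (0.413 to 1.40). Snrpb, for SmB, and Snrpn, its close relative known mainly from neurons, had no island.

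The particle-specific snRNP proteins stood near or below 1. Snrpa, the U1 protein that binds a loop of its RNA, had 28 against 12 reads and a fold of 1.17 (0.575 to 2.52). Snrpc, which stabilises pairing of U1 with the start of the intron, had 10 against 4 reads and 1.25 (0.361 to 5.47). Snrpa1, of the U2 particle, had 10 against 6 reads and 0.835 (0.275 to 2.79), and its partner Snrpb2 had no island. No island of these genes met the FDR of 0.05, and islands of 5 of the 8 Sm ring genes did, against 31.6% of all protein-coding genes. With so few genes and reads, these counts do not set the groups apart.

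Of the branch-site complexes, all 6 SF3B genes and 2 of the 3 SF3A genes had an island. The SF3B genes held 237 against 79 reads together, which gave 1.502 (1.16 to 1.96). Islands of 5 of the 6 met the FDR of 0.05, against 31.6% of all protein-coding genes. Sf3b1, whose product clasps the branch site, had 2 islands on chromosome 1 with 57 against 18 reads at the start and 14 against 3 reads inside the gene, together a fold of 1.69 (1.03 to 2.90). Sf3b3 had 33 against 12 reads at its start and 10 against 1 reads inside, together 1.66 (0.874 to 3.36). Sf3b2 had 32 against 19 reads at the start, a fold of 0.843 (0.464 to 1.57), and 34 against 8 reads over its end, 2.13 (0.967 to 5.32), in an island shared with Pacs1. Sf3a1 had 15 against 4 reads and 1.88 (0.598 to 7.77), Sf3a2 had 28 against 15 reads and 0.935 (0.483 to 1.88), and Sf3a3 had none. The remaining SF3B genes had 1 island each, with 26 against 7 reads at Sf3b4, 20 against 8 at Sf3b5 and 11 against 3 at Sf3b6.

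All 13 PRPF genes had an island and none had a fold below 1, against 10.7% of all protein-coding genes with an island. None of the 6 SF3B genes had one either, so so small a count is not particular to PRPF genes. With equal totals some genes of both families lay below 1, Prpf38a, Prpf39, Prpf4b and Sf3b2 among them. Pooled over the PRPF genes, 372 against 126 reads gave 1.48 (1.205 to 1.82). Prpf38b had 22 against 4 reads at its start and a fold of 2.75 (0.935 to 10.99). Prpf19, a ubiquitin ligase and core of the complex that activates the spliceosome, had 14 against 5 reads at the start and 17 against 1 reads over its end on chromosome 19 at 10907401 to 10909600, together 2.59 (1.06 to 7.59). The island over the end alone had a fold of 8.51 (1.33 to 356). Prpf40b had 23 against 5 reads and 2.30 (0.857 to 7.76). Prpf31, part of the tri-snRNP, had 25 against 6 reads and 2.09 (0.836 to 6.22). Prpf8, the scaffold of the catalytic centre, had 31 against 12 reads and 1.29 (0.646 to 2.77), Prpf6 had 43 against 15 reads and 1.44 (0.782 to 2.78), and Prpf39 had 25 against 10 reads and 1.25 (0.581 to 2.92). Prpf4, Prpf18, Prpf3, Prpf38a and Prpf4b had 1 island each and folds between 1.15 and 1.65. Only the interval of Prpf19 lay above 1.

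SR protein genes lay on both sides of 1. Of the 11 genes 10 had an island, and those of 5 (45.5%) met the FDR of 0.05, against 31.6% of all protein-coding genes. All together gave 1.25 (1.05 to 1.49) from 455 against 183 reads. Srsf7 had 10 against 2 reads just before its start, 16 against 2 reads inside the gene and 17 against 5 reads at its end, together 2.39 (1.15 to 5.58). Srsf1, the founding SR protein, had 3 islands with 37 against 10, 25 against 9 and 9 against 0 reads, together 1.87 (1.12 to 3.29). The island without a control read lay 644 bp past the gene end, and without it Srsf1 stood at 1.63 (0.964 to 2.89). Srsf10 had 38 against 19 reads at its start, a fold of 1.00 (0.563 to 1.84), and 39 against 5 reads inside the gene on chromosome 4 at 135858801 to 135862600, a fold of 3.91 (1.54 to 12.7). Below 1 lay Srsf2 with 65 against 42 reads and 0.775 (0.518 to 1.17), Srsf6 with 16 against 11 reads and 0.728 (0.317 to 1.74), Srsf3 with 0.977 (0.556 to 1.77) and Srsf4 with 0.966 (0.489 to 1.99). Srsf11 had 3 islands and 1.296 (0.726 to 2.42). Srsf5 had 64 against 24 reads in 2 islands and Srsf9 had 9 against 3 reads in 1. Srsf12 had none.

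The hnRNP genes had the most reads and folds that were mostly under 2. Islands lay at 20 of 21 genes and met the FDR of 0.05 at 13 (61.9%), against 31.6% of all protein-coding genes. Over the family, 1342 against 525 reads gave 1.28 (1.16 to 1.42). Hnrnpf, which binds runs of G in RNA, had the most peak-library reads of all members, 127 against 38, in 3 islands each near a listed start, with a fold of 1.67 (1.16 to 2.47). Its first island, at 117899801 to 117901800 on chromosome 6, had 32 against 5 reads and a fold of 3.21 (1.24 to 10.54). Hnrnpu, a nuclear scaffold protein, had 120 against 39 reads in 4 islands and 1.54 (1.07 to 2.27). Its reads were uneven, with 24 against 15 reads at the start and 71 against 17 reads over the gene end, an island shared with Cox20. Without that island Hnrnpu stood at 1.12 (0.662 to 1.94). Hnrnpa2b1 had 105 against 29 reads in 3 islands and 1.81 (1.19 to 2.84). Hnrnpc, which binds runs of U, had 83 against 25 reads and 1.66 (1.05 to 2.71), and Hnrnpm had 73 against 22 reads in 5 islands, the most of any member, and 1.66 (1.02 to 2.81). Without shared islands the intervals of Hnrnpa2b1 and Hnrnpc included 1 as well, at 0.991 to 3.27 and 0.764 to 3.17. Hnrnpul1 and Hnrnph3 stood at 1.44 (0.968 to 2.20) and 1.44 (0.904 to 2.37), and Hnrnpul2 at 1.18 (0.779 to 1.84). Hnrnpdl, Hnrnpr, Hnrnpd, Hnrnph1 and Hnrnpab had 43 to 62 peak-library and 16 to 21 control-library reads, with folds between 1.196 and 1.69.

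Hnrnpa0 had 20 against 4 reads at its start and was the only hnRNP gene with a fold of 2 or more, at 2.50 (0.839 to 10.1). Several hnRNP genes with many reads had a fold below 1. Hnrnpl, which silences exons of CD45 RNA, had 87 against 55 reads and 0.792 (0.559 to 1.13), and its relative Hnrnpll, known for the same exons in T cells, had 21 against 11 reads and 0.956 (0.441 to 2.20). Hnrnpa3 had 55 against 37 reads and 0.744 (0.482 to 1.16), Hnrnpk 59 against 32 reads and 0.923 (0.591 to 1.47), and Hnrnpa1 59 against 31 reads and 0.953 (0.607 to 1.52). Hnrnph2 had 21 against 16 reads and the lowest fold of all members, 0.657 (0.327 to 1.35), in an island shared with Gla. All of these intervals include 1. Hnrnpa1l2-ps2, which the annotation lists as protein-coding, had no island.

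**Figure D4:**
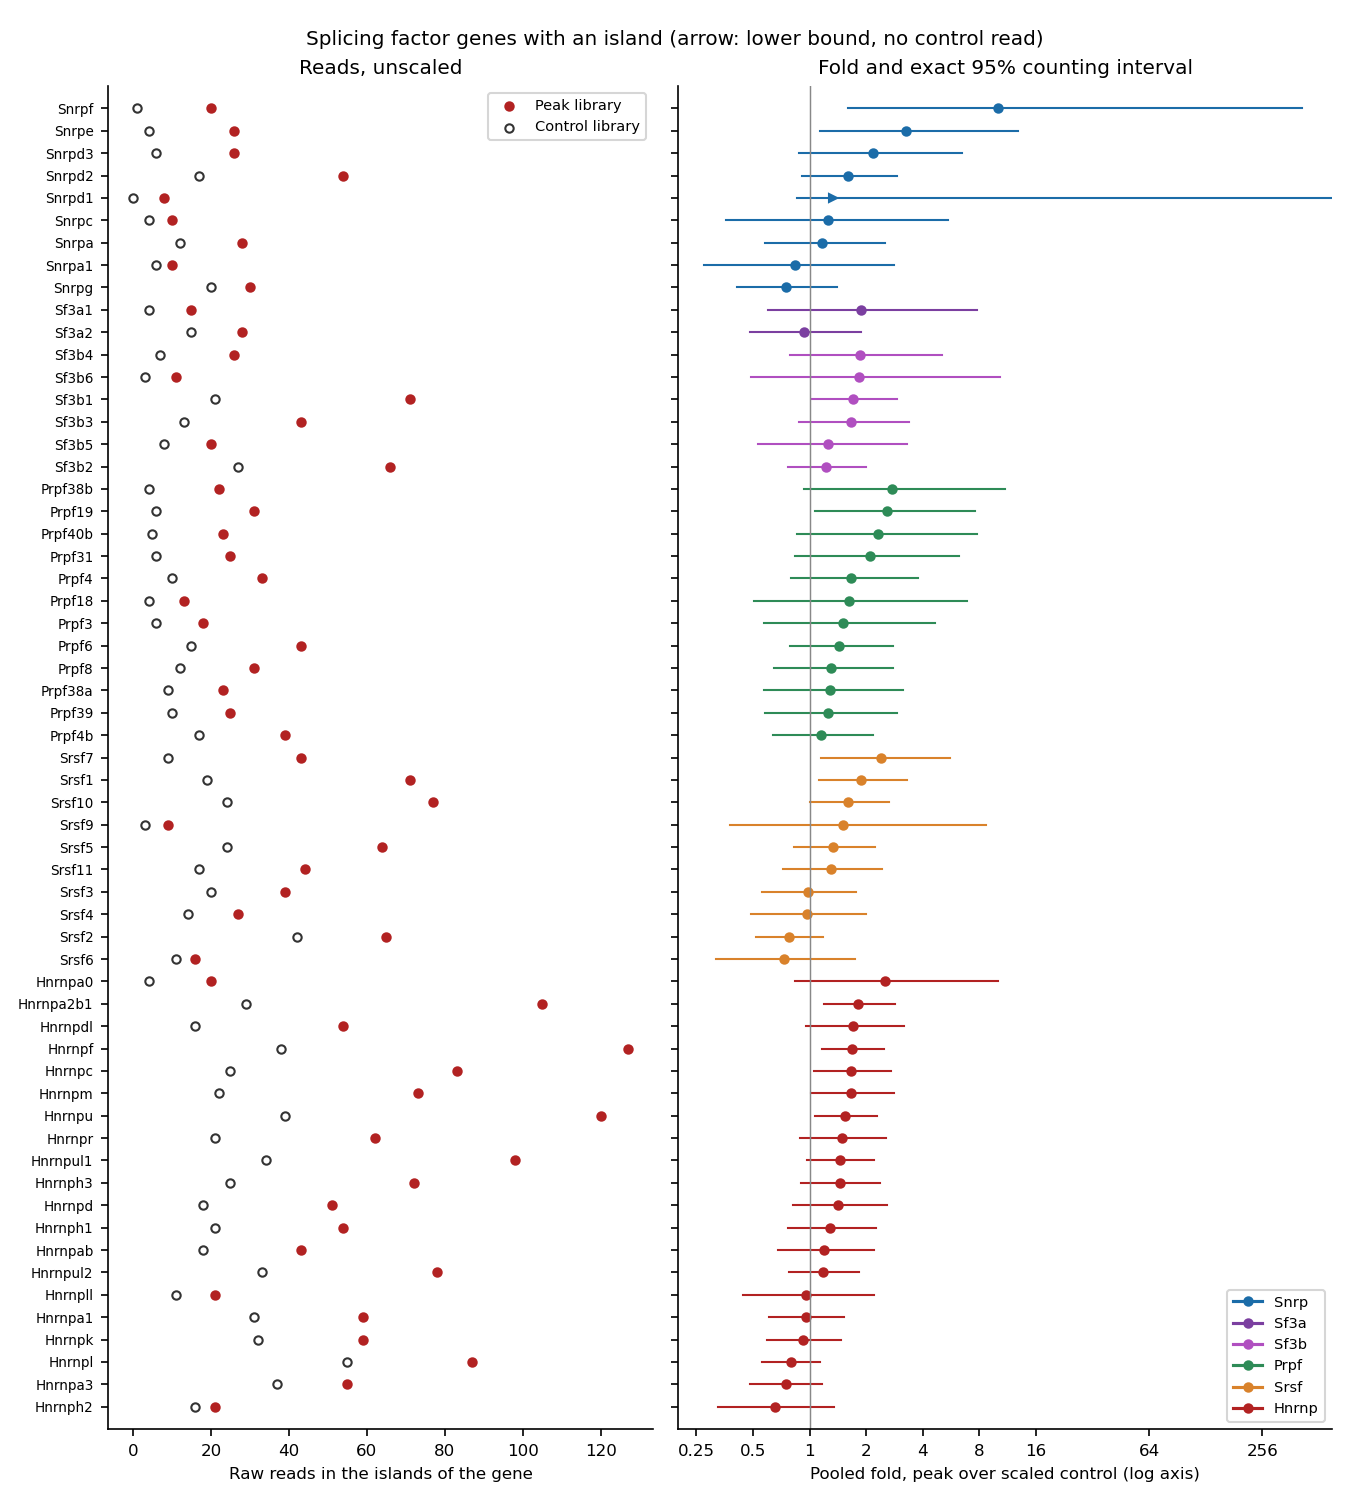
Left, raw reads in the islands of each member shown, with the peak library filled and the control library open. Right, pooled fold of peak over scaled control reads on a log axis with its exact 95% counting interval, coloured by family, where the arrow marks the lower bound of Snrpd1 against 3 control reads and its bar has no upper end. Snrpf stands highest at 10.0 and Hnrnph2 lowest at 0.657, and 12 bars lie wholly above 1 with this scaling, against 1 with equal totals.

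Folds were lower at gene starts than elsewhere in the same loci. The 58 islands within 1 kb of a start had 1818 against 748 reads, which pooled to 1.22 (1.12 to 1.33), and the 32 islands elsewhere in the genes with a listed start had 631 against 169 reads and 1.87 (1.58 to 2.23). With equal totals these were 0.951 and 1.46, so the side of 1 on which the start islands lie depends on the scaling, which moves both folds by the same factor. Per kb, start islands had a median of 15.0 peak-library and 5.13 control-library reads, and islands elsewhere had 9.41 and 2.39, with median widths of 1900 and 1800 bp. The FDR of 0.05 was met by 26 of the 58 start islands (44.8%) and by 23 of the 32 others (71.9%). Over all protein-coding genes with a listed start, 53.2% of start islands and 69.3% of the others met it. The folds had the same order over all protein-coding genes, at 1.43 (1.42 to 1.44) for 6891 start islands and 1.88 (1.86 to 1.91) for 5480 others. In these general values an island at the start of any gene counts as a start island. For members only the starts of members count, so an island at a neighbour's start stands among the others. The islands elsewhere in splicing factor genes were thus close to the general value, and the start islands lay below it. Low start folds were also found in the similar lists. Start islands pooled to 1.28 (1.18 to 1.38) for the further splicing genes, 1.26 (1.14 to 1.39) for ribosomal protein genes and 1.27 (1.12 to 1.45) for proteasome genes. Intervals cover reads within these 2 libraries and not the spread between genes.

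In 22 members with islands of both kinds, the fold elsewhere was higher in 16 (72.7%) and lower in 6. Over all 2194 protein-coding genes with both kinds, it was higher in 64.4% and lower in 35.0%. The gap was wide at Hnrnph1, with 35 against 19 reads at the start and 19 against 2 inside the gene, folds of 0.923 (0.513 to 1.71) and 4.76 (1.15 to 42.1). It was also wide at Srsf10, Prpf19 and Sf3b3, where the islands elsewhere held 5, 1 and 1 control reads. Among SR protein genes, which all have a listed start, start islands pooled to 1.03 (0.838 to 1.27) from 282 against 137 reads and the others to 1.88 (1.35 to 2.67) from 173 against 46 reads. Prpf39 and Srsf3 were among the 6 with the opposite order.

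**Figure D5:**
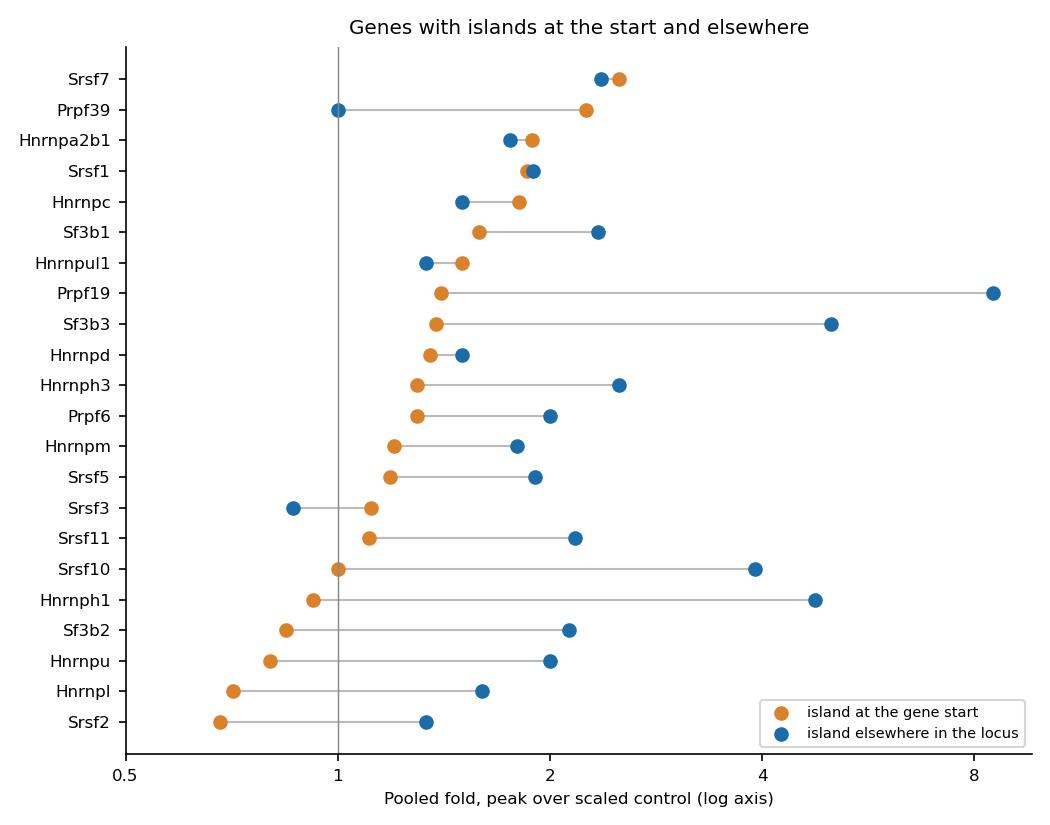
Pooled fold of peak over scaled control reads (log axis) for the 22 members with an island at the gene start (orange) and elsewhere in the locus (blue), joined by a line per gene and ordered by the fold at the start. The blue point lies to the right in 16 genes, with the widest gaps at Prpf19, Hnrnph1, Srsf10 and Sf3b3.

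The TCF core was about as frequent at splicing factor starts as at starts in general. CTTTG, on either strand, was found in the first listed promoter window of 32 of 58 members (55.2%), against 51.6% of 17491 protein-coding windows and 44.7% of the 6738 of those that overlap an island. Each of the 6 promoters printed above holds it, that of Snrpf with 2 matches and the others with 1 each. At Hnrnpa0 and Srsf7 the match lies outside the island, which covers only part of the window. The longer form CTTTGAA, which contains the core, was found at Prpf19 and Snrpe alone among the members (3.45%, against 4.76% of all windows), CTTTGAT at Prpf31 and Snrpa (3.45%, against 3.25%), and CTTTGTT at none of 58 (against 4.96%). A match describes letters in a window of 300 bases and not a bound site.

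Some other promoter motifs were more frequent among the members than over all windows. CCGGAAG, a core of ETS family sites, was found on either strand in 19 of 58 windows (32.8%), against 11.9% of all windows and 22.5% of those that overlap an island. It was present at Snrpe, Prpf19 and Srsf7 among the printed promoters. GGGCGG, the GC box, was found in 38 (65.5%), against 46.3% and 69.4%. CCAAT was found in 29 (50.0%), against 39.0% and 42.7%, and a form of the NRF1 site in 9 (15.5%), against 6.60% and 13.4%. TATAAA was found in 7 (12.1%), against 13.3% and 6.26%. AAGATGGCG and TGACGTCA, bound by YY1 and CREB, were found in 2 windows each (3.45%), against 1.94% and 2.34% of all windows and 4.24% and 4.07% of those that overlap an island. Median GC content was 59.5% in members, 56.3% over all windows and 61.3% over those that overlap an island, and the median number of CG dinucleotides was 24.5, 13 and 22. In GC content, CG dinucleotides, the GC box and the NRF1 form, the members lay closer to windows with an island than to all windows, and for CTTTG and TATAAA closer to all windows. Hnrnpa0 was the richest in GC, at 79.7% with 52 CG dinucleotides.

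The 1 kb flank decided few members. Sf3b6, Snrpc and Hnrnpa0 had an island in the flank only, 8 bp, 28 bp and 45 bp from the gene, with 11 against 3, 10 against 4 and 20 against 4 reads. The farthest island still counted lay 961 bp from Hnrnpul1, with 23 against 11 reads. Just outside the flank, islands lay 1015 bp from Prpf39 (19 against 2 reads), 1442 bp from Snrpd3 (17 against 4), 1516 bp from Prpf31 (48 against 17) and 1719 bp from Prpf6 (30 against 4), all genes that also had an island inside it. Of the 6 members without an island, Sf3a3 had the nearest one at 3461 bp and Srsf12 at 11658 bp. For Snrpb, Snrpb2, Snrpn and Hnrnpa1l2-ps2 it lay 93219 bp, 158869 bp, 751495 bp and 2501217 bp away. Reads below the caller's threshold are not in the table, so these genes are not shown to lack reads.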

How the data were processed

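The submitters' processing notes name Bowtie2 2.4.2, SICER 2.0 and the mm10 build. For window, gap, filters and treatment of duplicate or multiply mapped reads, the setting is not given in the sources used here. Multiply mapped reads bear on genes with retrocopies, such as Hnrnpa1. The read counts of each island were deposited as whole reads of a peak and a control library that, per the file headers, belong to no named sample. The authors deposited a fold, a ratio of peak to scaled control reads, and it uses 1 scaling factor, 2.00, for all 18419 islands with a control read. The p-value and FDR per island were deposited by the authors. To print positions counted from 1, 1 was added to starts and ends.

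Genes, promoter windows and listed starts came from RefSeq tables of GRCm38.p6. An island belongs to a gene when it overlaps the gene body or 1 kb on either side by 1 bp or more. Per-gene reads sum islands with fewer than 200 peak-library reads, and intervals are exact conditional binomial (Clopper-Pearson). Simulated reads for the real islands were used to check the intervals. Computation used Python 3.11.15, pandas 2.3.3, NumPy 2.4.6 and SciPy 1.17.1. Members named are the 12 with the most peak-library reads, the 6 with the highest and the 6 with the lowest fold among those with at least 20 peak-library reads, the member or members with the most islands in each family, up to 3 per family without an island, those without control reads and those with the 6 islands of highest fold among islands with at least 20 peak-library reads. Others were named after their values were seen. Members and lists were chosen with earlier results of these data known. Alternatives varied the locus, overlap, island filters, scaling, fold threshold and start window. The values of 1 member are not reported here, and it is left out of the plot of members.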

Additional observations from a re-analysis of the deposited data

How the results depend on the processing

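The count of members with an island stayed between 40 and 61 under the alternatives in locus, overlap, sharing, peak-library reads and control reads. It was 40 with islands in no other protein-coding locus (35.4% of all genes) and 61 with 10 kb on either side (54.7%). With islands of 20 or more peak-library reads it was 47 (27.2%). It became 36 with islands at an FDR of 0.05 or less (31.6%). At an FDR of 1e-05 or less 10 members had an island, in place of 36 (11.5% of all genes). Between 26 and 46 members met the FDR of 0.05 under the alternatives in locus, overlap and sharing (24.2% to 40.3% of all genes). The pooled fold of 1.33 became 1.92 with islands at an FDR of 0.05 or less, 1.04 with equal totals and 2.66 without scaling, and lay between 1.26 and 1.38 under every other alternative, each family or the most read member left out included. The 9 members at a fold of 2 or more became 18 with islands at an FDR of 0.05 or less (66.2% of all genes with an island), 4 with equal totals (19.4%), 47 without scaling (89.3%), 27 at a threshold of 1.5 (58.4%) and 2 at a threshold of 3 (14.2%). Alternatives for the start islands were added after the data were seen. Their fold of 1.22 became 1.75 with islands at an FDR of 0.05 or less, 0.951 with equal totals, now below 1, and 2.43 without scaling, and the fold elsewhere of 1.87 became 2.31, 1.46 and 3.73. Scaling cannot change the order of these folds. The start islands stayed lower under the alternatives in sharing, control reads and start window, at 1.20 against 1.68 with 3 or more control reads. The FDR filter picks islands on the same excess that the fold measures. Its higher folds follow from that choice, and it cannot check the order. Start windows of 500 bp and 2 kb both gave 53 genes. With equal totals 1 member in place of 12 had an interval above 1 and 3 in place of 0 had one below 1. No paired analysis was possible because each group has 1 library. Depth limits single islands, of which 20 rest on 1 to 3 control reads and 2 on none.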
